A study of Mus musculus with 4 samples.

Results

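The 9 genes described here code for the proteins assayed in this ChIP-seq study and for their Polycomb partners: Dzip3, Rnf2 (which codes for Ring1B), Ring1, Cbx2, Cbx7, Cbx8, Bmi1, Pcgf2 and Ezh2. They were listed by name, without use of the measurements, out of 22380 protein-coding genes in the GENCODE annotation of mm9, and the question was which of them carry Ring1B themselves. Peaks were counted for a gene when they lay within 100 kb of any of its annotated transcription start sites (TSS), and the promoter was taken as the TSS and 4 kb on either side.

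The cells were E14, a mouse ES cell line of 129/Ola origin, at passage 3-5, with no knockdown or other genetic change named in their labels. They grew on gelatin in 2i medium, which holds the MEK inhibitor PD0325901 at 1 μM and the GSK3 inhibitor CHIR99021 at 3 μM, with LIF at 1000 U/ml, and were fixed in formaldehyde. Chromatin of the same kind of cells was pulled down with antibodies against Dzip3, Ring1B or H2A ubiquitylated at lysine 119 (ubH2A), and input DNA was sequenced without pull-down. There was 1 library for each of the 4, so no value here has a replicate error, no p-value was computed, and all intervals are 95% intervals that cover counting error only.

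The libraries held 48.3 to 67.0 M reads, as implied by the RPM values (reads scaled to library size) in the lists of peaks. The methods give a lower number of uniquely mapped reads per sample, so what these implied sizes count is not known, and every RPM value here rests on them. A Ring1B peak had at least 31 extended reads at its highest point (0.599 RPM), and weaker binding was not called as a peak. Since Ring1B peaks were called on Ring1B reads, a high Ring1B level within them partly follows from that choice. The ubH2A and input lists could be read in full around Dzip3, Ring1, Cbx7, Bmi1 and Ezh2. Peaks of these 2 lists around Rnf2, Cbx2, Cbx8 and Pcgf2 were not analysed here, but the reads of the ubH2A and input libraries within every Ring1B peak are listed for all genes.

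Polycomb repressive complex 1 (PRC1) holds a RING protein, Ring1A or Ring1B, that ubiquitylates H2A, paired with a PCGF protein such as Bmi1 or Pcgf2. In canonical PRC1 a CBX protein binds H3K27me3, the mark that the PRC2 enzyme Ezh2 lays down. In ES cells Polycomb occupies CpG-rich promoters of developmental genes and is known to bind genes of its own subunits, and Dzip3 is another E3 ligase of H2A.

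Ring1B peaks lay within 100 kb of a TSS of 7 of the 9 genes, all but Rnf2 and Dzip3. The share among all protein-coding genes was 50.3%. Cbx2 and Cbx8 are neighbours and share the same Ring1B peaks, so the 7 genes stand for 6 loci. Within 50 kb there were 5 genes, within 10 kb there were Bmi1 and Cbx8, and at the promoter there was only Cbx8. The promoter share of 1 in 9 is near the 10.0% of all protein-coding genes and is no result about these genes. The number of peaks at Cbx8, in contrast, was high.

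Dzip3 peaks lay within 100 kb of a TSS of Cbx2, Cbx7, Cbx8 and Ezh2. These 4 of 9 genes compare with 36.4% of protein-coding genes, and no gene of the 9 had a Dzip3 peak at its promoter, where the background share was 3.13%. Peaks of ubH2A lay within 100 kb of 4 of the 5 genes with a complete list, namely Dzip3, Ring1, Cbx7 and Ezh2. The background share of ubH2A was 39.0% at 100 kb and 3.37% at the promoter, where none of the 5 genes had a ubH2A peak. Input DNA, the control without pull-down, had peaks within 100 kb of Dzip3 and Ezh2, 2 of the same 5 genes, beside 21.0% of protein-coding genes. With so few genes, nothing particular to them is read from these counts. The map of peaks by gene shows that most of the peaks belong to the Cbx2 and Cbx8 locus and to the Ezh2 locus.

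**Figure D1:**
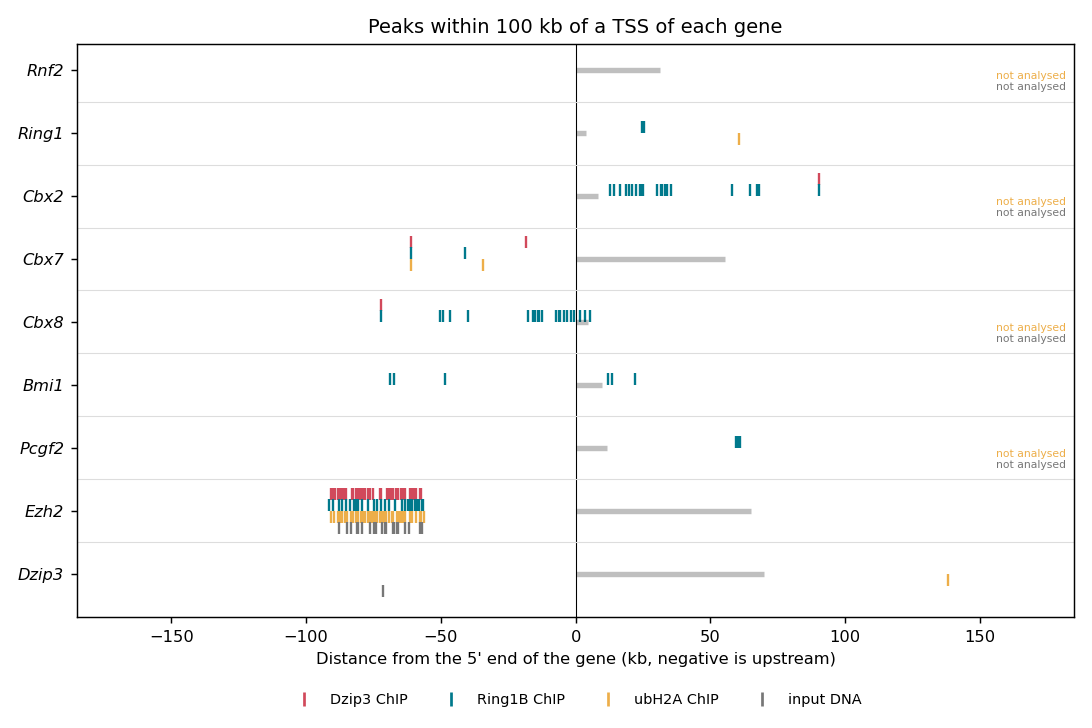
All peaks of the 4 lists within 100 kb of a TSS of each gene, with the distance from the gene's 5′ end in kb on the x axis (negative is upstream) and 1 tick per peak, coloured by library. The grey bar is the gene, and "not analysed" marks ubH2A and input lists that could not be read in full there; the Cbx8 promoter alone carries Ring1B peaks, and Ezh2 alone has a dense block of peaks of all 4 libraries, 56.2 kb or more upstream.

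The gene of the Ring1B protein itself, Rnf2 (chr1:153316536-153347953, minus strand), had no Ring1B or Dzip3 peak within 100 kb. Its nearest Ring1B peak lay 151 kb from the TSS and its nearest Dzip3 peak also 151 kb. Of all protein-coding genes, 38.8% had their nearest Ring1B peak farther away, so Rnf2 lies toward the remote side of the middle.

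Ring1 (chr17:34157737-34161625, minus strand) codes for Ring1A, the other RING ligase of PRC1. It had 2 Ring1B peaks, 23.6 and 24.4 kb downstream of its nearest TSS. Both lie in exons of H2-K1, a gene of a classical MHC class I heavy chain, and a TSS of H2-K1 lies inside each of them. The stronger of them (chr17:34136643-34137304) held 236 reads of Ring1B, against 66 of Dzip3, 27 of ubH2A and 3 of input DNA. The other (chr17:34135991-34136509) held 201 reads of Ring1B, against 16 of Dzip3, 74 of ubH2A and 3 of input DNA. Ring1B was the highest library in both, whereas the order of Dzip3 and ubH2A was opposite in the neighbouring peaks. Scaled to library size, Ring1B reads in the pair were 68.0 times the input reads (31 to 186), and neither overlapped a Dzip3, ubH2A or input peak. MHC class I genes are closely related in sequence, and 15.2% and 55.7% of the 31-base words in these peaks occur more than once in the genome. Ring1 also had a ubH2A peak 59.7 kb downstream in an intron of Vps52, with 58 ubH2A reads, 39 Dzip3 reads, 37 Ring1B reads and 9 input reads. At 0.865 RPM of ubH2A (0.657 to 1.12), 0.732 RPM of Dzip3 (0.521 to 1.0) and 0.715 RPM of Ring1B (0.503 to 0.985), the intervals of the 3 ChIP libraries overlapped there.

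Cbx2 (chr11:118884276-118892584, plus strand) and Cbx8 (chr11:118897619-118902283, minus strand) code for chromobox proteins of canonical PRC1 and are transcribed toward each other. The locus held 21 Ring1B peaks within 100 kb of Cbx2 and Cbx8, and these held 3923 reads of Ring1B, against 608 of Dzip3, 587 of ubH2A and 112 of input DNA. The summed Ring1B level of 75.8 RPM (73.4 to 78.2) was higher than that of 98.7% of the 11258 genes with a Ring1B peak in this range, whose median was 3.05 RPM. Ring1B reads were 32.7 times the input reads (27.1 to 39.8). Dzip3 reads were 4.92 times (4.02 to 6.08) and ubH2A reads 3.78 times (3.08 to 4.66). As medians of single peaks, with 1 read added to each count, the Dzip3 and ubH2A ratios were 3.08 and 3.36 at the locus. Over all Ring1B peaks the medians were 4.53 and 3.96, so neither ratio was high for a Ring1B peak. Of the 21 peaks, 16 had Cbx8 as the gene with the nearest TSS and none had Cbx2.

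The 16 peaks around Cbx8 ran from 2.73 kb beyond the nearest TSS on the downstream side to 17 kb upstream (chr11:118896531-118920246), each within 10 kb of the next. They spanned 23.7 kb, of which 8.52 kb was covered by peaks. Such a run is rare in the list: 80.6% of the 6327 runs of Ring1B peaks were single peaks, and 27 runs had 16 or more. Most of these longer runs hold a peak that overlaps an input peak. Of the 5638 runs without an input peak, 5 had 16 or more, that at Cbx8 included. None of the 16 peaks overlapped a Dzip3, ubH2A or input peak.

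At the Cbx8 promoter there were 7 Ring1B peaks, the nearest (chr11:118900449-118900741) only 340 bp from a TSS. They held 1428 reads of Ring1B, against 257 of Dzip3, 256 of ubH2A and 51 of input DNA. At 27.6 RPM (26.2 to 29.1) Cbx8 ranked 128 among the 2238 genes with a promoter Ring1B peak. The most Ring1B reads were in the peak over Cbx8 exons 1.02 kb downstream (chr11:118898248-118899086), with 349 reads of Ring1B, against 51 of Dzip3, 40 of ubH2A and 6 of input DNA. Upstream, the peak 359 bp from the TSS (chr11:118902641-118903329) held 233 reads of Ring1B, against 52 of Dzip3, 73 of ubH2A and 3 of input DNA. The peak 3.86 kb upstream (chr11:118906139-118906922) held 246 reads of Ring1B, against 53 of Dzip3, 59 of ubH2A and 17 of input DNA. In all 7 peaks Ring1B was far above the other libraries, which follows in part from their choice as Ring1B peaks. The other 4 promoter peaks held 58 to 309 reads of Ring1B, against 2 to 68 of Dzip3, 9 to 49 of ubH2A and 1 to 14 of input DNA.

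**Figure D2:**
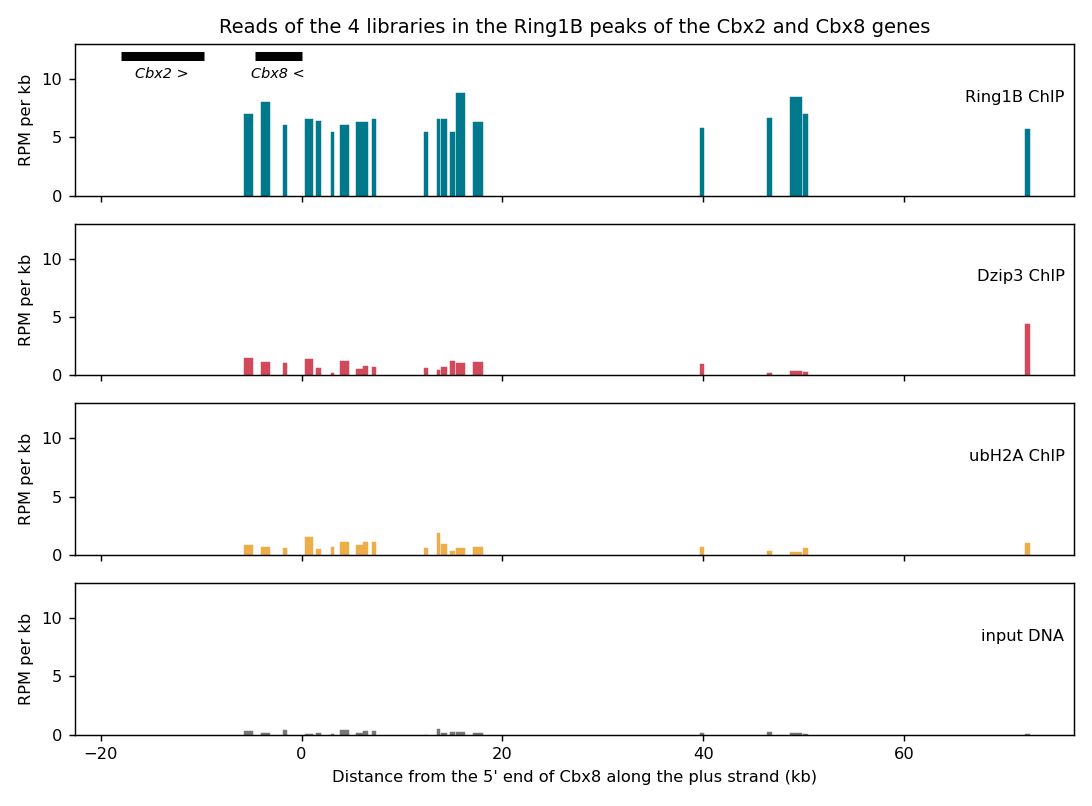
Reads of the 4 libraries in the 21 Ring1B peaks of the Cbx2 and Cbx8 locus, as RPM per kb of peak (y axis, same scale in each panel) against the distance from the 5′ end of Cbx8 along the plus strand in kb (x axis). Bars are as wide as the peaks, and black bars are genes with their direction. The peaks were called on Ring1B, which stands above the other libraries in every peak. The Dzip3 level is highest in the last peak on the right, at 72.0 kb.

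Cbx2 itself, which lies at the edge of the run, had its nearest Ring1B peak 11.5 kb downstream of its nearest TSS, beyond the end of the gene. No Ring1B or Dzip3 peak touched its promoter. The 250 bases before Cbx2 are shown because they are rich in CpGs, 28 in all, yet held no peak of either list. For comparison the middle 300 bases of the Ring1B peak 3.86 kb upstream of Cbx8 are given, with 16 CpGs. Capitals mark CpGs, and all sequences are of the plus strand of mm9, 5′ to 3′, counted from 1.
Cbx2 upstream bases, chr11:118884026-118884275: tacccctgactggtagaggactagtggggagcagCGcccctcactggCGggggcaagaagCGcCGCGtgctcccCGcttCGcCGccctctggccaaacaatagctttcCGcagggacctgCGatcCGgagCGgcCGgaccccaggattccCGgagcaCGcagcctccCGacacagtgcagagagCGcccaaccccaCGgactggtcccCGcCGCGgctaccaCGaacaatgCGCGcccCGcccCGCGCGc
Cbx8 upstream peak, chr11:118906381-118906680: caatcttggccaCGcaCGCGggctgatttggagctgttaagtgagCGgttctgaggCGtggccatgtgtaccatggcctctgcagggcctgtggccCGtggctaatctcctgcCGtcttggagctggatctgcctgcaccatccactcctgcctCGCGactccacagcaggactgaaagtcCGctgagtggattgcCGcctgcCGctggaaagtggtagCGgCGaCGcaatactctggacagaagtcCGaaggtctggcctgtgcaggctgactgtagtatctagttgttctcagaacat

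The Ring1B peak of the locus with the most reads lay 48.6 kb upstream of Cbx8. It held 472 reads of Ring1B, against 22 of Dzip3, 17 of ubH2A and 8 of input DNA, so that it was low in Dzip3 and ubH2A. The only Dzip3 peak of the locus lay 72.0 kb from the Cbx8 TSS, within a Ring1B peak. It held 60 reads of Dzip3, against 100 of Ring1B, 16 of ubH2A and none of input DNA, where the upper end of the 95% interval is 0.0764 RPM (the limit of 3 reads often used for a count of 0 is 0.0621 RPM).

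Cbx7 (chr15:79746237-79801549, minus strand) codes for the chromobox protein that predominates in PRC1 of ES cells. It carried few Ring1B reads, and both its Ring1B peaks had Pdgfb, which codes for a growth factor chain, as the nearest gene. The peak in a Pdgfb intron (chr15:79842522-79842864), 41.0 kb upstream of Cbx7, held 93 reads of Ring1B, against 12 of Dzip3, 36 of ubH2A and 2 of input DNA. The peak 61.0 kb upstream (chr15:79862523-79862769) held 85 reads of Ring1B, against 57 of Dzip3, 115 of ubH2A and 12 of input DNA, and Dzip3 and ubH2A peaks lay over it. In the first Ring1B was the highest library, whereas in the second Ring1B at 1.64 RPM (1.31 to 2.03) and ubH2A at 1.72 RPM (1.42 to 2.06) did not differ beyond counting error. The summed Ring1B level was 3.44 RPM (2.95 to 3.98), above that of 53.8% of genes with a Ring1B peak and so near the middle.

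The Dzip3 peak nearest to any of the 9 genes was 18.3 kb upstream of Cbx7 (chr15:79819878-79820078), and Cbx7 had the nearest TSS. It held 65 reads of Dzip3, against 28 of Ring1B, 18 of ubH2A and none of input DNA. Of protein-coding genes, 89.7% had their nearest Dzip3 peak farther away. No Ring1B or ubH2A peak overlapped it. A ubH2A peak 34.2 kb upstream (chr15:79835711-79835911), in a Pdgfb exon, held 68 ubH2A reads, 32 Dzip3 reads, 19 Ring1B reads and no input read. This Dzip3 peak and the Ring1B peak in Pdgfb are given together because they differ in CpGs. The Dzip3 peak has 4 in its 200 bases, and the Ring1B peak 35 in its middle 300 bases. The other Ring1B peak, 61.0 kb upstream, had only 5 CpGs in 246 bases. The difference is thus one of the pair shown and not of the Dzip3 and Ring1B peaks near Cbx7 in general.
Dzip3 peak nearest Cbx7, chr15:79819879-79820078: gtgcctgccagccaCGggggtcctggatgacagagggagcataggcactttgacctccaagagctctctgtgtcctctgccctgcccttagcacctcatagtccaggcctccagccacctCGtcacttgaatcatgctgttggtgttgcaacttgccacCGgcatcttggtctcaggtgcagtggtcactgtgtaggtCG
Ring1B peak in Pdgfb, chr15:79842543-79842842: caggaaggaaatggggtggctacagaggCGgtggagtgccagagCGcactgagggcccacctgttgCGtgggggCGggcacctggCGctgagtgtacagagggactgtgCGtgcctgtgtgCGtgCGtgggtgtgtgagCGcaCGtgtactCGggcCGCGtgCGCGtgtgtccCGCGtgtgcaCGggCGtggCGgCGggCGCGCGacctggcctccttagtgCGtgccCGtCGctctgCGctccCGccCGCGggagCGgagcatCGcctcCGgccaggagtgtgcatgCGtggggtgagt

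Bmi1 (chr2:18598645-18608256, plus strand), which codes for Pcgf4, a partner of the RING proteins that stimulates ligase activity, had 6 Ring1B peaks and no Dzip3 or ubH2A peak within 100 kb. They summed to 27.7 RPM (26.3 to 29.2), more than in 93.9% of genes with a Ring1B peak. Ring1B reads were 44.6 times the input reads (31.1 to 66.4), and Dzip3 reads 5.68 times (3.85 to 8.66). None of the 6 peaks was nearest to Bmi1, however, and none touched its promoter. The nearest genes were Commd3, Gm13334 and BC061194.

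Of the Bmi1 peaks, 3 lay downstream of the gene (chr2:18610344-18621378). The nearest, 7.61 kb from a Bmi1 TSS, held 361 reads of Ring1B, against 37 of Dzip3, 63 of ubH2A and 7 of input DNA. The next, 9003 bp away, held 217 reads of Ring1B, against 12 of Dzip3, 28 of ubH2A and none of input DNA. The farthest (chr2:18620202-18621378), which spans the TSS of BC061194, held 594 reads of Ring1B, against 60 of Dzip3, 98 of ubH2A and 12 of input DNA. Ring1B reads were 57.6 times the input reads in these 3 peaks (36.7 to 95.9). The 3 upstream peaks, 48.4 to 68.7 kb away, were weaker, with 57 to 110 reads of Ring1B, against 15 to 38 of Dzip3, 6 to 25 of ubH2A and 1 to 8 of input DNA, and the weakest of them lay in sequence of which 93.5% of 31-base words recur in the genome. The middle 300 bases of the peak nearest to Bmi1 hold 18 CpGs and are shown as an example of unique, CpG-rich sequence. The ratio of observed to expected CpGs of this peak, 0.901, was the highest of the 6, whose median was 0.686 and lowest 0.
Bmi1 downstream peak, chr2:18610665-18610964: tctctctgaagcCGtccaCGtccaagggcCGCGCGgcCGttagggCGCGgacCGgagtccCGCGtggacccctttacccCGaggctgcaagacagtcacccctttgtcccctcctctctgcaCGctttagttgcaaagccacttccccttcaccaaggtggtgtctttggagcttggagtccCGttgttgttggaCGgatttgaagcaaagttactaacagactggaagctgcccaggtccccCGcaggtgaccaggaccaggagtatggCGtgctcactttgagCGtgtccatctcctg

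Pcgf2 (chr11:97550137-97561811, minus strand), which codes for Mel18, the close relative of Bmi1, had 3 Ring1B peaks 51.1 to 52.7 kb downstream, nearest to E130012A19Rik, and no Dzip3 peak within 100 kb. The strongest (chr11:97501315-97501820) held 152 reads of Ring1B, against 66 of Dzip3, 74 of ubH2A and 5 of input DNA. The peak beside it (chr11:97500733-97501011) held 86 reads of Ring1B, against 70 of Dzip3, 59 of ubH2A and 4 of input DNA, and a ubH2A peak covered 60.1% of it. The last (chr11:97502372-97502634) held 74 reads of Ring1B, against 13 of Dzip3, 11 of ubH2A and 6 of input DNA. Compared with the Bmi1 peaks, Ring1B exceeded Dzip3 by less, 2.15 times (1.77 to 2.64) against 7.85 times (6.74 to 9.19), and these intervals of the summed reads do not overlap. Single peaks did not keep to this order, since the last Pcgf2 peak had 1.43 RPM of Ring1B and 0.244 RPM of Dzip3, and the weakest Bmi1 peak 1.10 RPM and 0.713 RPM. The sequence is made of repeats rich in TG, and 56.4% to 91.9% of its 31-base words recur in the genome. The letters TGTGTGTGTGTG, the most frequent word of this length of the strongest peak, were searched on both strands in the middle 200 bases. They were found in all 3 of these peaks and in 7.39% of all Ring1B peaks. Since the word was taken from these neighbouring peaks, its presence in all 3 is no separate result. It was also found in 4 of 27 Ezh2 peaks and 1 of 6 Bmi1 peaks, and in none of Cbx7, Cbx8 and Ring1. The middle 300 bases of the strongest peak hold 3 CpGs.
Pcgf2 downstream peak, chr11:97501418-97501717: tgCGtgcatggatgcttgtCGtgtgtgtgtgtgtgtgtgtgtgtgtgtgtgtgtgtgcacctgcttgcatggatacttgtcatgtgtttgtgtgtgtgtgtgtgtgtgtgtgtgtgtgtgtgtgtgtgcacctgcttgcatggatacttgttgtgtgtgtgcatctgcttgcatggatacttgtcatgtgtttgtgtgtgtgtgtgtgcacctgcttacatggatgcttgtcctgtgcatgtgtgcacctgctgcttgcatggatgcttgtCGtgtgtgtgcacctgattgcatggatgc

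Ezh2 (chr6:47480273-47545340, minus strand), the methyltransferase of PRC2, had by far the most peaks of the 9 genes, 27 of Ring1B, 39 of Dzip3, 41 of ubH2A and 20 of input DNA. All lay from 56.2 kb upstream onward, in a stretch of 35.5 kb (chr6:47601537-47637038) that ends where the assembly has 50 kb of unsequenced bases. Another 27 Ring1B peaks lay within 50 kb beyond that gap. Ezh2 was the gene with the nearest TSS for all 27 of its peaks. The stretch is repeated sequence: 99.2% of its 31-base words occur more than once within it, and 95.8% of the spacings between successive occurrences were within 5% of their median of 4.32 kb.

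The Ring1B peaks of this stretch held 26491 reads of Ring1B, against 7077 of Dzip3, 8486 of ubH2A and 2798 of input DNA. The summed Ring1B level was 512 RPM (506 to 518), against 133 RPM for Dzip3, 127 RPM for ubH2A and 57.9 RPM for input DNA. These peaks covered 32.9 kb, and per kb of peak the levels were 15.6 RPM for Ring1B and 1.76 RPM for input DNA. Relative to input reads, Ring1B reads were 8.83 times (8.50 to 9.19), Dzip3 reads 2.29 times (2.19 to 2.40) and ubH2A reads 2.19 times (2.09 to 2.28). Of the 27 Ring1B peaks, 23 overlapped a Dzip3 peak, 24 a ubH2A peak and 16 an input peak. The listed fold over input of single peaks was 3.23 to 43.8 for Ring1B, 0.870 to 21.3 for Dzip3 and 0.622 to 11 for ubH2A. The methods describe the mapped reads as unique, while over 90% of the 31-base words recur in the genome in 26 of these 27 peaks. The part that repeated sequence or an uncounted number of copies plays in these levels was not tested.

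High folds over input recurred along the stretch with the repeat. The middle 150 bases of the peak with the highest fold were found in 9 identical copies, 4.25 to 4.36 kb apart. A Ring1B peak lay over each copy, but Ring1B peaks covered 32.9 kb of the 35.5 kb stretch, so most positions lie under one. The 9 peaks with a copy had listed folds of 12.4 to 43.8, with a median of 24.9. The other 18 peaks had folds of 3.23 to 10.8, with a median of 6.11. The copied bases were picked from the peak of highest fold, and the identical copies are not independent of each other. Ring1B levels of both groups overlapped, at 13.5 to 27.2 RPM per kb with a copy and 7.73 to 23.9 RPM per kb without. Input DNA differed more, with 0.440 to 1.10 RPM per kb at the peaks with a copy and 1.21 to 5.26 RPM per kb at the others. The fold has the input reads in its denominator, so low input and high fold are not separate measurements. GC content also differed, at 60.3% to 65.5% with a copy and 45.2% to 61.9% without, and its part in these levels was not tested. The shared 150 bases are given once.
Copied bases of the Ezh2 stretch, chr6:47631842-47631991: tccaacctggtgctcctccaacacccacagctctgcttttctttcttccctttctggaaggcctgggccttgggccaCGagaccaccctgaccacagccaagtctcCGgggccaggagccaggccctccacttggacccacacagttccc

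**Figure D3:**
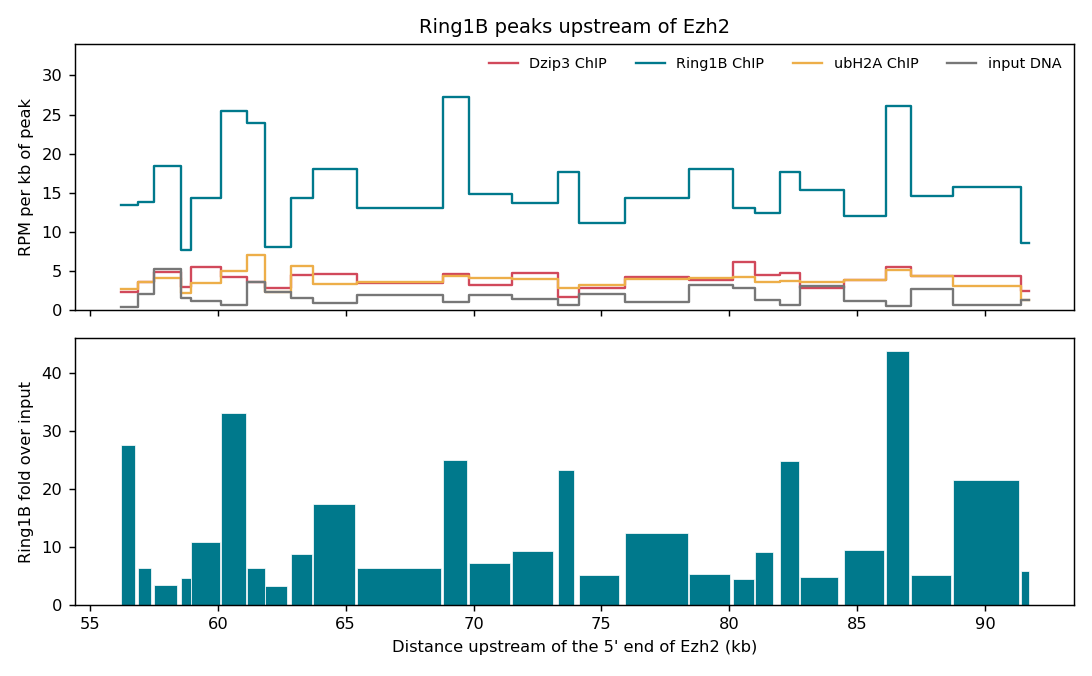
The 27 Ring1B peaks upstream of Ezh2 against the distance from its 5′ end in kb (x axis), with the RPM per kb of peak of the 4 libraries (upper panel) and the listed Ring1B fold over input (lower panel, bars as wide as the peaks). The lines run level across each peak and on to the next; 9 peaks with folds of 12.4 to 43.8 recur along the stretch, separated by peaks of lower fold and higher input level.

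The Dzip3 gene (chr16:48924345-48994278, minus strand) was the most remote from Ring1B and Dzip3 of the 9. Its nearest peak of either list lay 474 kb away, and only 11.6% of protein-coding genes had their nearest Ring1B peak, and 18.1% their nearest Dzip3 peak, farther away. No peak of either protein was thus called within 100 kb of the gene of this ligase. The only ChIP peak within 100 kb was a ubH2A peak 73.5 kb from a TSS on the downstream side (chr16:48856193-48856394), nearest to Retnla, with 71 ubH2A reads, 34 Dzip3 reads, 30 Ring1B reads and 4 input reads. No Dzip3 or Ring1B peak was called there. Levels were 0.638 RPM for Dzip3 (0.442 to 0.892) and 0.580 RPM for Ring1B (0.391 to 0.827). Input DNA, with 4 reads, had 0.0828 RPM (0.0226 to 0.212), and its interval did not overlap theirs. The place was picked as a ubH2A peak, so this is no separate sign of Dzip3 or Ring1B binding. An input peak 71.2 kb upstream, in an intron of Myh15, held 33 input reads, 44 ubH2A reads, 17 Ring1B reads and 1 Dzip3 read. The ubH2A peak is given whole, with its 13 CpGs in capitals.
ubH2A peak of the Dzip3 gene, chr16:48856194-48856394: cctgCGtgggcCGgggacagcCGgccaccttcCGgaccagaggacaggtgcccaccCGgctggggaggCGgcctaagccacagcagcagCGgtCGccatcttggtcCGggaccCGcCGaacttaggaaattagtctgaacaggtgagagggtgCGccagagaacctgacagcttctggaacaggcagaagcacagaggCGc

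Ordered by the Ring1B reads of their strongest peak, the genes ran from Ezh2 with 42.9 RPM (41.1 to 44.7) through Bmi1 with 11.5 RPM (10.6 to 12.4), Cbx2 and Cbx8 with 9.12 RPM (8.31 to 9.98) and Ring1 with 4.56 RPM (4.0 to 5.18) to Pcgf2 with 2.94 RPM (2.49 to 3.44) and Cbx7 with 1.80 RPM (1.45 to 2.20). No interval overlapped that of the next gene, by counting error alone. Only Ezh2 had the nearest TSS to its strongest peak. At the other genes another gene was nearer, so the order is one of peaks in the range of the genes. The strongest peak with Cbx8 as the nearest gene held 7.17 RPM of Ring1B (6.46 to 7.93). The longer peaks held more reads, and per kb of peak the order was another. The median Ring1B level per kb was 6.53 RPM at Bmi1, 6.44 RPM at Cbx2 and Cbx8, 7.20 RPM at Ring1, 5.81 RPM at Pcgf2 and 5.96 RPM at Cbx7, near the 6.09 RPM of all 10119 Ring1B peaks, and only Ezh2 with 14.3 RPM stood apart. Input DNA was highest at Ezh2, with 6.42 RPM in the strongest peak, and at most 0.248 RPM at the others. The median ratio of Ring1B to input reads, with 1 read added to each count, was 9.02 at Ezh2, below 13.8 in all Ring1B peaks. Relative to input DNA, Ezh2 was thus not high.

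**Figure D4:**
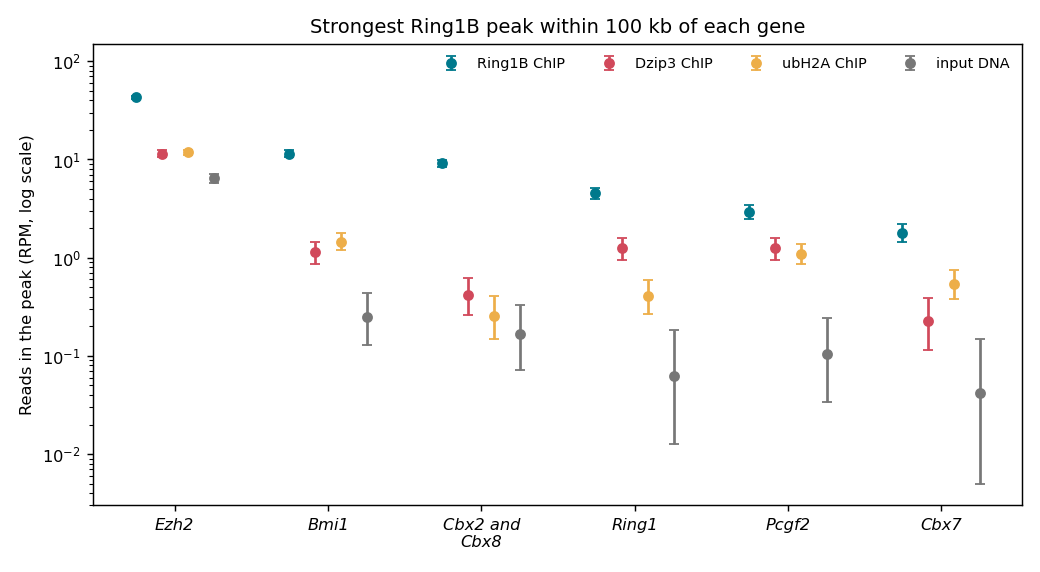
Reads of the 4 libraries in RPM (y axis, log scale) in the strongest Ring1B peak within 100 kb of each gene, with 95% Poisson intervals for counting error; there is 1 library for each target. The peaks were picked by their Ring1B reads, so it is no separate result that Ring1B is the highest library at every gene. Ring1B runs from 42.9 RPM at Ezh2 to 1.80 RPM at Cbx7. Input DNA is the lowest library, with its highest level at Ezh2. The input interval, however, overlaps those of Dzip3 and ubH2A at Cbx2 and Cbx8 and that of Dzip3 at Cbx7.

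Together the 9 genes had 61 different Ring1B peaks. A Dzip3 peak overlapped 25 of them (41.0%), beside 32.5% of all Ring1B peaks. A ubH2A peak overlapped 26 (42.6%), compared with 33.2% of all Ring1B peaks. These shares rested on Ezh2. Without it a Dzip3 peak overlapped 2 of 34 Ring1B peaks (5.88%), a ubH2A peak also 2, and an input peak none. The 2 Ring1B peaks with a Dzip3 peak were those 72.0 kb upstream of Cbx8 and 61.0 kb upstream of Cbx7.

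The 34 peaks outside the Ezh2 stretch also differed from the list as a whole in their reads and sequence, as medians of the pooled peaks with no test. The ratio of Ring1B to Dzip3 reads was 7.09, against 2.35 in all Ring1B peaks, with 1 read added to each count. The ratio of Ring1B to input reads was 30.4, against 13.8. Ratios of Dzip3 and of ubH2A to input reads were 4.0 and 4.27, against 4.53 and 3.96. The Ring1B level itself was 6.45 RPM per kb of peak, near the 6.09 RPM per kb of all Ring1B peaks. The median ratio of observed to expected CpGs was 0.626, against 0.303 (quartiles 0.108 and 0.644), and the median GC content was 60.6%, against 55.5%. None of the 31-base words recurred in the genome in 24 of the 34 peaks. Most of these 34 peaks, 21, are of the Cbx2 and Cbx8 locus and weigh most in the medians. The loci were not alike. The median ratio of Ring1B to Dzip3 reads was 7.58 at Cbx2 and Cbx8, 7.99 at Bmi1 and 7.93 at Ring1. It was 4.48 at Cbx7 and 2.35 at Pcgf2, as in the whole list. The ratio of Ring1B to input reads was 17.7 at Cbx7 and 16.2 at Pcgf2, and the median CpG ratio at Pcgf2 was 0.112.

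**Figure D5:**
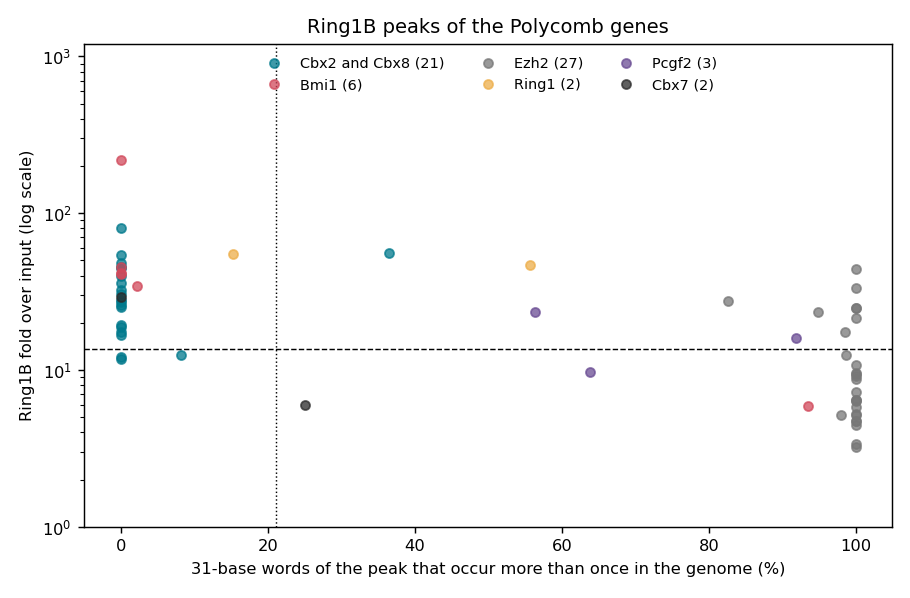
Listed Ring1B fold over input (y axis, log scale) of the 61 Ring1B peaks against the percent of their 31-base words that occur more than once in mm9 (x axis), coloured by gene, with the number of peaks in the legend; the dashed and dotted lines are the medians of all 10119 Ring1B peaks, 13.6 and 21.1%. Most peaks of Cbx2 and Cbx8 and of Bmi1 sit at 0%, those of Pcgf2 between 56.4% and 91.9%, and those of Ezh2 between 82.6% and 100%.

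The genes whose promoter Ring1B peaks were most like those of Cbx8 over the reads of the 4 libraries were Osr2, Wnt7b and Prdm12, at distances of 0.50, 0.57 and 0.59 on the log2 scale among 2237 genes compared. Osr2 codes for a zinc-finger transcription factor, Wnt7b for a signalling ligand and Prdm12 for a PR-domain protein. Their promoter peaks held 35.9, 36.1 and 40.2 RPM of Ring1B, beside 27.6 RPM at Cbx8, and 4.24, 3.98 and 4.13 RPM of Dzip3, beside 4.82 RPM.

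In a wider list of 49 genes of Polycomb complexes, H2A ligases and deubiquitylases, 24 had a Ring1B peak within 100 kb and 4 at the promoter, near the shares of all protein-coding genes. Leaving the 9 genes out, 17 of 40 (42.5%) had a Ring1B peak within 100 kb. The PRC1 subunits differed by class in their counts. All 6 PCGF genes had a Ring1B peak within 100 kb, none at the promoter, and beside Bmi1 and Pcgf2 the nearest distances were 7.35 kb for Pcgf1, 6.16 kb for Pcgf3, 30.0 kb for Pcgf5 and 13.3 kb for Pcgf6. All 4 CBX genes of the list had both a Ring1B and a Dzip3 peak within 100 kb, though Cbx2 and Cbx8 share a locus. Of 5 PHC and SCM genes 1 had a Ring1B peak, of 9 genes of variant PRC1 4, of 6 PRC2 core genes 2 and of 5 deubiquitylases 1. The classes are small, and nothing particular to them is read from these counts.

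The 4 genes with a Ring1B peak at the promoter were Cbx8, Phc2, Mga and Asxl3. Phc2, which codes for a polyhomeotic subunit of canonical PRC1, had a peak of 58 reads of Ring1B, against 14 of Dzip3, 20 of ubH2A and 4 of input DNA, at 455 bp from a TSS. Mga, a subunit of variant PRC1, had a peak of 59 reads of Ring1B, against 10 of Dzip3, 17 of ubH2A and none of input DNA, at 247 bp from a TSS. The single promoter peaks of Phc2 and Mga were thus far weaker than the run at Cbx8. Asxl3, which codes for a partner of the H2A deubiquitylase Bap1, had a peak over a TSS with 90 reads of Ring1B, against 72 of Dzip3, 17 of ubH2A and 2 of input DNA, and a Dzip3 peak covered 58.3% of it. Dzip3 peaks at a promoter were found for 2 of the 49 genes (4.08%), Asxl3 and Usp16, beside 3.13% of all protein-coding genes. A ubH2A peak was found for Scmh1 among 41 genes with a complete list (2.44%), beside 3.37%. Both shares are near the background and are no result about these genes. Usp16 and Scmh1 were named after their values were seen.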

How the data were processed

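ChIP-seq peaks of 4 libraries (Dzip3, Ring1B, ubH2A and input DNA) were used. The authors mapped reads on mm9, then called the peaks of every library separately in the Partek Genomics Suite; fragmentation was by micrococcal nuclease in the methods and by a Picoruptor in the labels. The deposited lists hold counts of reads of each library in every peak, the height as a signal in RPM, a p-value against input DNA, a scaled ratio (fold) to input DNA and, in percent, the part of a peak that other lists cover, and the authors normalized RPM and fold for library size. Rows with other than 18 columns were left out, 1 each in the ubH2A and input lists, and peaks between the flanking positions (all or most of chromosomes 1, 10 and 11, and most of 12 for input DNA) were not analysed here, so overlaps with those lists were read from the listed percentages.

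Distances were taken to every annotated TSS of the protein-coding genes of GENCODE vM1. TSSs of other gene types were left out, also where the gene with the nearest TSS is named. Reads were divided by the library size implied by RPM. Intervals are exact Poisson for reads and Clopper-Pearson for ratios. A run joins Ring1B peaks up to 10 kb apart, a limit set after the positions were seen. Peak positions are as listed. Sequence came from the NCBIM37 genome, in which 10114 of 10119 Ring1B peaks lay wholly within a chromosome. Named genes are the 9 genes with their nearest and strongest peaks, genes nearer to those peaks, Polycomb genes with a promoter Ring1B peak, and the 3 genes nearest to Cbx8 by Euclidean distance of log2(RPM + 0.01). A gene and a sequence that these rules would have named are not reported here. The genes and lists were chosen with earlier results of these data known. Functions were tested on simulated data. Scripts ran in Python 3.11.15 (scipy 1.17.1, matplotlib 3.10.9, pandas 2.3.3, numpy 2.4.6, numba 0.67.0).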

Additional observations from a re-analysis of the deposited data

How the results depend on the processing

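No paired analysis was possible because each target has 1 library and no result comes from a test. The 7 of 9 genes with a Ring1B peak within 100 kb became 2 within 10 kb and 2 when a peak counted only for its nearest gene (Cbx8 and Ezh2). The 4 genes with a Dzip3 peak became 1 at a limit of 50 kb, 0 at 10 kb and 2 by nearest gene (Cbx7 and Ezh2). The 4 of 5 genes with a ubH2A peak became 1 within 50 kb and 0 within 10 kb. The count of 1 gene with a promoter Ring1B peak was the same in the 4 alternatives tried. Of the Ring1B peaks of the 9 genes, 25 of 61 overlapped a Dzip3 peak. This became 10 of 45 with input-overlapping peaks left out and 14 of 57 with the stronger 50% of each list. In an alternative chosen after seeing the data, it became 2 of 34 with Ezh2 left out. Among all protein-coding genes the Ring1B share was 34.4% within 50 kb, 14.2% within 10 kb, 48.3% without input-overlapping peaks and 33.7% with the stronger 50%, and the Dzip3 share was 22.2%, 6.37%, 34% and 25.4%. At the strongest Ring1B peak, reads on a common library size moved Ezh2 to 40.3 RPM. The highest Ring1B level per kb of peak was 7.50 RPM at Ring1, 6.67 RPM at Cbx7, 9.76 RPM at Bmi1, 5.98 RPM at Pcgf2 and 27.2 RPM at Ezh2. The lists limit what could be seen, since the lowest called Ring1B peak had 31 extended reads and the lowest Dzip3 peak 33, against 15 for input DNA.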
